A study of Mus musculus with 4 samples.

Results

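Papilla cells of the molar at postnatal day 1 (P1) were taken from the single-cell counts by 3 marker genes and 3 collagen genes. They were the barcodes with at least 1000 unique molecular identifiers (UMIs, counted transcript molecules), under 10% mitochondrial UMIs, at least 2 UMIs in the sum of Rspo4, Crym and Fgf3, and at least 3 in the sum of Col1a1, Col1a2 and Col3a1. They held at most 1 UMI of the odontoblast gene Dspp and none of Epcam, Cdh1, Pecam1 or Ptprc, which mark epithelium, endothelium and blood cells. The choice gave 4182 cells of 38108 P1 barcodes and of 56940 barcodes in the series. The maxillary library held 2519 of them and the mandibular one 1663, which is 27.4% and 34.0% of the mesenchymal cells that passed the same filters without the marker and Dspp conditions.

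The dental papilla is the neural crest-derived mesenchyme enclosed by the enamel organ, and it gives rise to the dentin-secreting odontoblasts and to the pulp. Signals of the Wnt, BMP, FGF and hedgehog families pass between papilla and epithelium while the crown takes shape, and the mesenchyme answers through homeobox genes of the Msx, Dlx and Barx families. Rspo4 encodes an R-spondin, a secreted protein that strengthens Wnt signaling through the Lgr receptors. Fgf3 encodes a ligand from mesenchyme to epithelium, and Crym a protein that binds thyroid hormone in the cytosol.

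The study sequenced whole molar tooth organs of wild-type C57BL/6J mice, which carried no transgene and received no treatment, at embryonic day E15.5 (written E15 in the sample labels) and at P1 (P0/P1 in the protocol). Maxillary and mandibular molars were collected apart, 6 tooth organs were pooled in each of 4 libraries, and 1 library was made per stage and jaw. With 1 library per group, the values below have no replicate error and no test between conditions. Their intervals cover counting error alone. The P1 libraries held 128812956 (maxillary) and 139873101 (mandibular) UMIs, and the papilla cells had medians of 13139 and 14668 UMIs and of 4208 and 4384 detected genes. Levels are given as UMIs of a gene per 1000000 UMIs of a class of cells (CPM), the maxillary value before the mandibular one unless a sentence names the jaws. Since 3′ ends were counted, a level is compared between classes for 1 gene and not between genes.

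Rspo4 carried the choice. It was detected in 92.2% of the maxillary and 91.3% of the mandibular papilla cells, Fgf3 in 50.4% and 55.5%, and Crym in 5.16% and 6.79%. Their levels were 409.7 and 366 CPM for Rspo4, 101 and 86.7 CPM for Fgf3 and 10.2 and 12.6 CPM for Crym. In immune cells, chosen by Tyrobp and Fcer1g, which should lack Rspo4 (521 and 482 cells, medians of 2965 and 7179.5 UMIs), Rspo4 was seen in 0.248% and 0.219% of cells thinned to 2000 UMIs. The papilla cells at that depth gave 53.0% and 47.9%, a difference that the rule itself fixes. These genes chose the cells, and their levels are a description. In the mouse genome (GRCm38, GENCODE vM21) Rspo4 lies on chromosome 2 at 151842927 to 151874668 on the plus strand, Crym on chromosome 7 at 120186380 to 120202111 on the minus strand, and Fgf3 on chromosome 7 at 144838083 to 144844436 on the plus strand.

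Other genes known from the papilla met the label in part. Barx1, a homeobox gene of molar mesenchyme, stood at 684 and 516 CPM, and Msx1, another one, at 221 and 177 CPM. In other mesenchyme of the same filters with 0 marker UMIs, Barx1 had 329.6 and 195 CPM and Msx1 141 and 64.6 CPM. Pax9 had 72.5 and 41.9 CPM in papilla cells against 155 and 42.5 CPM in other mesenchyme, and the ligand Fgf10 81.9 and 72.3 against 52.3 and 51.4. The LIM homeobox genes Lhx6 (33.6 and 12.7 CPM against 51.4 and 14.4 CPM) and Lhx8 (35.7 and 27.6 against 79.7 and 37.1) were not above other mesenchyme. Tfap2b, a neural crest factor, was at 16.3 and 2.47 CPM against 102 and 21.4 CPM. By the fold defined below, 1 of the 6 measured genes of this list was higher (Barx1) and 1 lower (Tfap2b), against 4.52% and 6.06% of all genes. Within the shared barcodes described below 0 were higher and 1 lower. Of markers of papilla regions, 2 of 2 apical (root side), 1 of 2 middle and 1 of 2 coronal (cusp side) genes were higher and 0 lower. Within the shared barcodes 0 of 2, 1 of 2 and 1 of 2 were higher and 0 lower.

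Cells just outside the marker threshold had intermediate levels of Msx2 and Igfbp5, which the rule did not use. With 0, 1, 2 and 3 or more marker UMIs, the homeobox gene Msx2 had 26.0, 155, 199.9 and 216 CPM in the maxillary cells. The mandibular series was 21.5, 88.0, 147 and 181 CPM. Igfbp5, which binds insulin-like growth factors and is abundant in the dental follicle, went the other way, from 1027 CPM at 0 markers through 168 and 57.2 to 41.2 CPM in the maxillary cells, and from 1112 through 325 and 98.4 to 42.5 CPM in the mandibular cells. Smpd3, a gene of mineralizing cells, followed no such order, with 729 and 824 CPM at 1 marker UMI, 873 and 1048 CPM at 2 and 507 and 639 CPM at 3 or more. There were 272 and 225 members with exactly 2 marker UMIs and 440 and 385 cells with exactly 1, which stayed in no class. At the Dspp threshold, 55 and 93 members had 1 Dspp UMI, and 15 and 18 cells with the markers had 2 to 9. The latter already held the mineralization genes Phex (309 and 255 CPM) and Dmp1 (409 and 241 CPM), which in members were at 7.33 and 9.27 CPM and 1.85 and 7.41 CPM.

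The P1 libraries shared cell barcodes, and this bears on every maxillary value. Of the barcodes, 7131 were present in both, and 2458 of the 2519 maxillary papilla cells (97.6%) were among them. Of the 2458, all but 2 had more UMIs in the maxillary counts, with a median log2 ratio of 2.07 (5th to 95th percentile 2.01 to 2.17). Rspo4 was at 412 CPM in the maxillary counts of the 2458 barcodes and at 391.7 CPM in their mandibular counts. Msx2 had 216 and 218 CPM in the same way, and Barx1 686 and 678 CPM. The level was about the same in both sets of counts for these 3 genes. Hbb-bs differed, with 441 CPM in the maxillary and 1033 CPM in the mandibular counts of these barcodes.

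The 61 maxillary papilla cells whose barcode was in 1 library only looked different. Their median depth was 3923 UMIs, against 13298.5 in the shared ones. Rspo4 was at 177 CPM and Msx2 at 54.2 CPM, while Crym reached 582 CPM against 5.77 CPM in the shared ones. Pax3 and Alx1, transcription factors of facial neural crest mesenchyme, were at 202 and 155 CPM in these 61 cells and at 0.222 and 0.25 CPM in the 2458. The split ran through the whole maxillary library. Among its other mesenchyme, 4727 cells with unshared barcodes had 153 CPM of Pax3, and 1432 with shared barcodes had 2.19 CPM. From which library the cells behind the shared barcodes came was not tested. Results are therefore also given for papilla cells and other mesenchyme within the shared barcodes of the maxillary library, and the 1663 mandibular cells carry none of the shared barcodes.

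**Figure D1:**
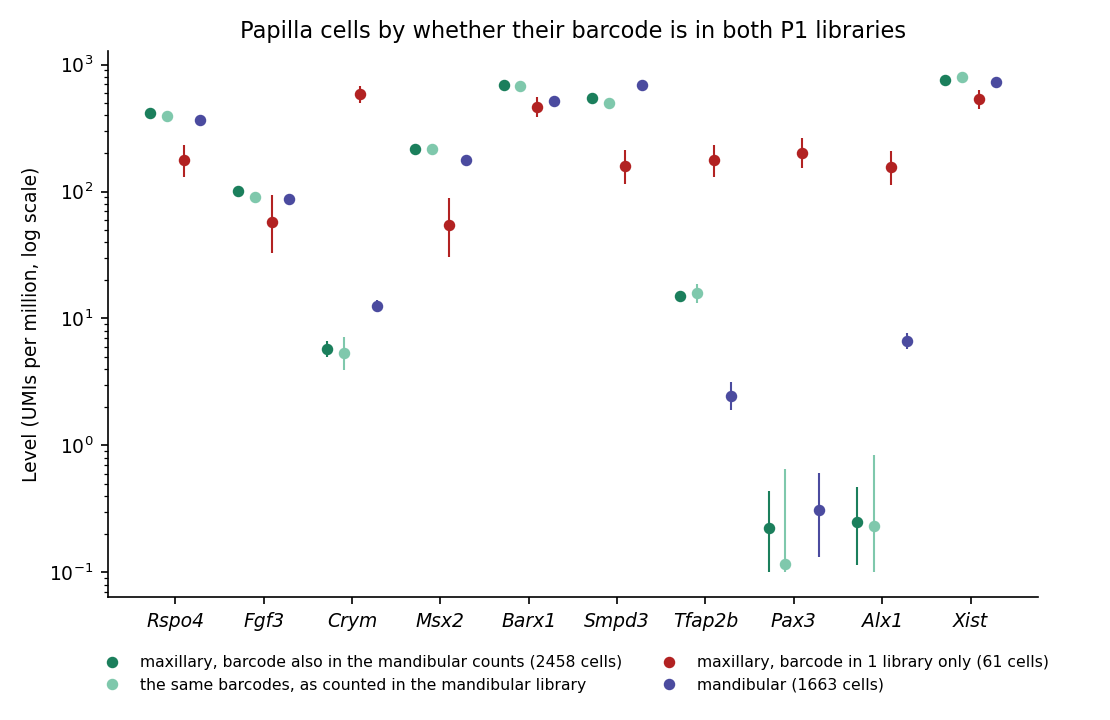
Level of 10 genes in CPM (log scale) in papilla cells by barcode, with points for levels and bars for 95% counting intervals. The 2458 shared barcodes have nearly the same Rspo4, Msx2 and Barx1 levels in both sets of counts, while the 61 maxillary cells with unshared barcodes stand apart in Crym, Pax3 and Alx1.

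RNA of other cell types was present. The summed markers of red blood cells were 848 and 3816 CPM in papilla cells and 7041 and 21078 CPM in other mesenchyme, led by Hbb-bs, a beta-globin gene, at 458 and 2060.4 CPM in papilla cells. The 10 papilla cells richest in Hbb-bs held 92.7% (maxillary) and 58.9% (mandibular) of its UMIs. Epithelial markers summed to 123 and 265 CPM, led by the enamel matrix genes Ambn (56.2 and 104 CPM) and Amelx (30.3 and 114 CPM). At 2000 UMIs per cell, Amelx was seen in 5.68% and 21.0% of papilla cells and in 4.70% and 36.2% of the immune cells. Hbb-bs was seen in 7.55% and 25.4% of papilla cells against 34.4% and 38.6% of immune cells. The shares of papilla cells with Hbb-bs in both libraries, and with Amelx in the mandibular one, were thus below those of the immune cells. The 6 endothelial markers summed to 22.5 and 30.8 CPM, led by Kdr, and the 6 immune markers to 8.73 and 18.8 CPM, led by Lyz2. The 5 glial markers summed to 11.7 and 9.92 CPM, and the 7 muscle markers to 21.4 and 78.3 CPM, led by Acta1. Pericyte markers summed to 252 and 245 CPM, led by Kcnj8, and cartilage markers to 195 and 184 CPM, and in other mesenchyme to 268 and 257 CPM and 121 and 104 CPM. By the fold defined below, 6.06% of all genes were lower in papilla cells than in other mesenchyme. Lower were 4 of 4 red blood cell, 2 of 2 tendon (Tnmd and Mkx) and 2 of 2 connective tissue genes (Dpt and Clec3b). Within the shared barcodes 1 of 2 tendon genes was lower. Of 8 osteoblast (bone-forming cell) genes 3 were lower and 2 higher, against 6.06% and 4.52% of all genes. The glial list summed to 90.7 and 95.5 CPM in other mesenchyme. The tendon list summed to 28.5 and 86.9 CPM against 91.7 and 618 CPM. The connective tissue list summed to 5.51 and 19.5 CPM against 153 and 487 CPM. Its sums in papilla cells lie under 20 CPM, so Dpt and Clec3b could reach that level only through other mesenchyme. Their count follows in part from this level condition and is a description. The part of these other cell types in the results was not tested. In the endothelial, immune and muscle lists, 0 markers reached the level to be tested.

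Against other mesenchyme, which passed the same filters with 0 marker UMIs (6159 maxillary and 2698 mandibular cells, medians of 3008 and 9671 UMIs), the papilla cells had higher levels of 6 of 8 BMP response genes and of 6 of 18 odontogenic transcription factors, among them Msx2, Dlx3 and Dlx5. They had lower levels of 5 of 8 follicle genes and of 8 of 20 matrix genes, 6 of them collagens. The rule chose the cells on 3 genes, so these differences describe them and are no test. A gene counted as past the fold when its log2 ratio was at least 1, or at most -1, in both jaws and its level was at least 20 CPM in the higher class of each jaw. Of 7391 genes, 334 were higher (4.52%) and 448 lower (6.06%). The median log2 ratio over all of them was 0.03 and 0.09. Within the shared barcodes of the maxillary library 262 genes were higher (3.55%) and 444 lower (6.01%). Without shared barcodes 178 were higher and 220 lower, and in the mandibular jaw alone 542 and 714.

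**Figure D2:**
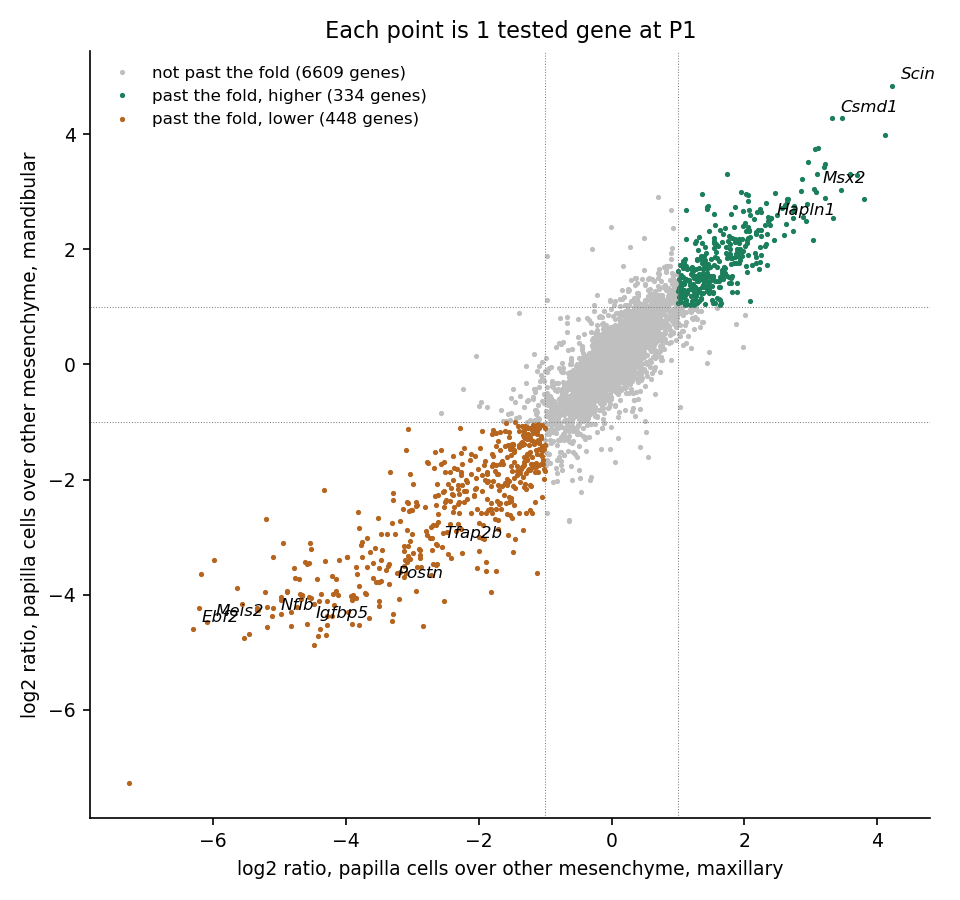
log2 ratio of papilla cells over other mesenchyme in maxillary (x) and mandibular (y) cells, with 1 point per tested gene. The 334 genes higher and 448 lower in both jaws lie in opposite corners, with Scin at 4.23 and 4.84 and Igfbp5 at -4.59 and -4.51.

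The 12 genes furthest above other mesenchyme, ranked by the smaller ratio of the jaws, were Scin, Grik1, Csmd1, Nebl, Stk32a, Sytl4, D030025E07Rik, Dpf3, Sall3, Msx2, Gm973 and Rab3b. Scin encodes an actin-severing protein and had 104 and 110.1 CPM in papilla cells and 5.58 and 3.84 CPM in other mesenchyme, log2 ratios of 4.23 and 4.84. Grik1, a glutamate receptor subunit, had 1123 and 587 CPM against 101 and 30.2 CPM. Csmd1 had 671 and 1380.1 CPM against 67.5 and 71.0 CPM, and Nebl, an actin-binding gene, 824 and 786 CPM against 68.6 and 79.9 CPM. All 12 stayed past the fold within the shared barcodes, with maxillary log2 ratios between 2.25 (Msx2) and 3.75 (Scin).

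The 10 genes furthest below were Agtr2, Ebf2, Cd34, Slc1a3, Igfbp5, Meis2, Nfib, C1qtnf3, Lpl and Fibin, and all stayed past the fold within the shared barcodes. Nfib, a transcription factor, had 25.2 and 37.0 CPM in papilla cells and 869.9 and 767 CPM in other mesenchyme. Ebf2, a factor of jaw and fat precursor mesenchyme, had 0.909 and 15.6 CPM against 71.7 and 374 CPM. Igfbp5 had 42.7 and 48.8 CPM against 1027 and 1112 CPM. Of the 8 follicle markers, 5 were lower and 0 higher (Igfbp5, Postn, Bmp3, Acta2 and Aldh1a2), against 6.06% and 4.52% of all genes, with a list median log2 ratio of -3.19 and -3.39. With Crym left out of the markers, 5 of the 8 reached 20 CPM in papilla cells of either jaw, and the rest only through other mesenchyme. The count thus follows in part from the level condition and is a description, though Igfbp5 and Postn reached 20 CPM in papilla cells. Periostin (Postn), a matrix protein of the follicle and ligament, had 114 and 105 CPM against 1162 and 1477 CPM.

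Among 18 measured transcription factors of odontogenic mesenchyme, 6 were higher and 4 lower, against 4.52% and 6.06% of all genes. Msx2, a homeobox gene downstream of BMP signaling, had 215 and 177 CPM against 26.0 and 21.5 CPM, log2 ratios of 3.05 (95% interval 2.94 to 3.16) and 3.04 (95% interval 2.92 to 3.17). Dlx3 had 143 and 120.1 CPM against 27.5 and 21.0 CPM, Dlx4 113 and 92.0 against 18.4 and 13.6, and Dlx5 200.4 and 175 against 51.4 and 47.8. These 4 genes stayed past the fold within the shared barcodes, with maxillary log2 ratios from 1.26 (Dlx5) to 2.25 (Msx2). Dlx2 and Barx1 did not, with 0.86 and 0.56. The lower ones were Prrx1, Runx2, Pitx1 and Tfap2b, and all 4 stayed lower within the shared barcodes. Runx2, the factor of bone-forming cells, had 158 and 175 CPM against 610.3 and 391 CPM, and Prrx1, a limb and jaw mesenchyme factor, 119.7 and 105 against 577 and 399.

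The promoters of 3 genes are shown because Rspo4 chose the cells, Scin stood furthest above other mesenchyme and Dpf3, a chromatin reader among the 12 genes, holds one of the motifs searched. Each is the run of 250 bases before the RefSeq start (GRCm38.p6) on the gene's own strand, and overlaps 0 exons of the GENCODE annotation. The motifs were TAATTA, a core bound by homeodomain proteins, and CTTTGA, the core of TCF/LEF sites, searched on both strands and marked by capitals. The windows are chr2:151842677-151842926 (plus strand) for Rspo4, chr12:40134229-40134478 (minus strand) for Scin and chr12:83487737-83487986 (minus strand) for Dpf3.
Rspo4: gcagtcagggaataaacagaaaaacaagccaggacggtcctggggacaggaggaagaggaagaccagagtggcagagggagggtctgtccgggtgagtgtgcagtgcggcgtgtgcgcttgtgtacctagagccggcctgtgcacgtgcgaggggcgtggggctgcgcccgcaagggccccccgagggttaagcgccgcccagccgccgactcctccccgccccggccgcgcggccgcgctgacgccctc
Scin: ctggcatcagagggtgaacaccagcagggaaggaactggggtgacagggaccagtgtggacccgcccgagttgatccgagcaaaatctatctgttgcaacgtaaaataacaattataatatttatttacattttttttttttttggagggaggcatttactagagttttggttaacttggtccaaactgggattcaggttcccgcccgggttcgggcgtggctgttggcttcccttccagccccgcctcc
Dpf3: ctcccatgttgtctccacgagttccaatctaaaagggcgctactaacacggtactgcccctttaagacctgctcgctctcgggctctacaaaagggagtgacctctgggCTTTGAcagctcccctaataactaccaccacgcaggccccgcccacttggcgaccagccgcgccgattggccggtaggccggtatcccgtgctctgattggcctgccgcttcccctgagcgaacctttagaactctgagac
Rspo4 and Scin held neither motif in this window, and Dpf3 held the TCF/LEF core. Over all 32851 promoter windows of this length, 4.84% held TAATTA and 13.8% CTTTGA on either strand. Of Rspo4, the 12 genes and Dkk1 (below), 9 had a single promoter entry, of which 1 held TAATTA (Msx2) and 2 held CTTTGA (Dpf3 and Dkk1). A match is a description of letters, and binding was not measured.

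Of the BMP response genes, 6 of 8 were higher and 0 lower, against 4.52% of all genes, with a list median of 1.33 and 1.60. Smad6, an inhibitory SMAD induced by BMP, had 201 and 208 CPM against 40.5 and 38.8 CPM, log2 ratios of 2.31 (95% interval 2.22 to 2.40) and 2.42 (95% interval 2.33 to 2.52). Id3, a BMP-induced helix-loop-helix inhibitor, had 842 and 782 CPM against 354 and 269.7 CPM, and Id1 272 and 229.9 against 103 and 65.1. Smad7, Id4 and Msx2 completed the 6. Within the shared barcodes 5 stayed, and Id4 was short of the fold at 0.79. Of the ligands, Bmp2 (239.5 and 136 CPM against 58.6 and 41.7 CPM) and Bmp7 were higher, and Bmp3 and Bmp6 lower.

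In the Wnt pathway, 0 of 5 ligands passed the fold, and within the shared barcodes 1 of 6 was lower (Wnt9a). Of 10 secreted antagonists, 3 were higher and 2 lower, against 4.52% and 6.06% of all genes. Dkk1, which blocks the Lrp co-receptors, had 124 and 86.5 CPM against 24.3 and 26.2 CPM. Notum, a deacylase that inactivates Wnt proteins, and Wif1, which binds them, were the other higher ones, and Wif1 was short of the fold within the shared barcodes (0.84). Sfrp2 (32.4 and 34.3 CPM against 754 and 295 CPM) and Sostdc1 were lower. Lef1, a target and effector of the pathway, was lower too, at 23.4 and 16.7 CPM against 98.4 and 81.2 CPM. Rspo2, a second R-spondin, had 432 and 238 CPM against 178 and 104 CPM, and its maxillary ratio within the shared barcodes was 0.54. Rspo3 and the receptor Lgr5 were lower, Rspo3 not past the fold within the shared barcodes by the level condition. Of the receptors, Fzd7 was higher and Ror1 lower.

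Hedgehog reception was uneven. Ptch1, receptor and target of the pathway, had 913 and 831 CPM against 365 and 296 CPM, but its maxillary log2 ratio within the shared barcodes was 0.71. The co-receptor genes Cdon, Boc and Gas1 were lower, Gas1 with 18.0 and 24.4 CPM against 251 and 350.1 CPM, and so was Gli2, whose ratio within the shared barcodes was -0.80. Of 4 measured FGF ligands outside the rule, 3 were lower (Fgf2, Fgf7 and Fgf18) and 0 higher, where 6.06% and 4.52% of all genes were. Fgf10 had 81.9 and 72.3 CPM against 52.3 and 51.4 CPM, short of the fold. The list of 10 ligands summed to 107 and 104 CPM in papilla cells, most of it Fgf10. Most of the 3 lower genes could thus reach 20 CPM only through other mesenchyme, and their count is a description. The receptor Fgfr3 was higher. Of 6 Notch genes, 1 was higher and 0 lower, a count to be read against the same shares. It was Hey1, a target, with 80.0 and 103 CPM against 19.6 and 13.2 CPM.

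Of 20 matrix genes, 4 were higher and 8 lower, against 4.52% and 6.06% of all genes. The higher ones were the link protein gene Hapln1 (232 and 225 CPM against 45.3 and 40.2 CPM), the proteoglycan genes Vcan (2436 and 1784 against 856 and 827) and Lum (1805 and 2241 against 673 and 667), and Tnc. Tnc, a glycoprotein of condensing mesenchyme, had a ratio of 0.97 within the shared barcodes. The lower ones were Col4a1, Col5a1, Col5a2, Col6a1, Col6a2, Col14a1, Has2 and Postn. Of 7 measured odontoblast genes outside the rule, 5 were higher (Smpd3, Alpl, Notum, Nes and Sp7) and 0 lower, set against the same shares. Smpd3, a sphingomyelinase needed for mineralization, had 541 and 685 CPM against 125 and 207 CPM. Within the shared barcodes 3 of 8 were higher and 1 lower (Phex), against 3.55% and 6.01% of all genes there, with Nes and Sp7 short of the fold (0.98 and 0.86).

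Of the cell cycle lists, 0 of 22 S phase and 0 of 38 G2/M genes passed the fold, where 4.52% of all genes were higher and 6.06% lower, and within the shared barcodes 1 of 38 G2/M genes was higher (Ube2c). Mki67 or Top2a, both proliferation genes, were seen in 12.2% and 18.8% of papilla cells and in 11.5% and 10.5% of other mesenchyme at 2000 UMIs per cell. Among the immune cells, which also divide, the share was 21.3% and 12.7%. Of 16 immediate early and heat shock genes, 0 were higher and 4 lower in papilla cells (Atf3, Dusp1, Dnajb1 and Nr4a1), against the same shares. Within the shared barcodes 0 were higher and 6 lower, against 3.55% and 6.01% of all genes there, with a list median log2 ratio of -0.79 and -1.45. These genes respond to dissociation, and their part in the other results was not tested.

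**Figure D3:**
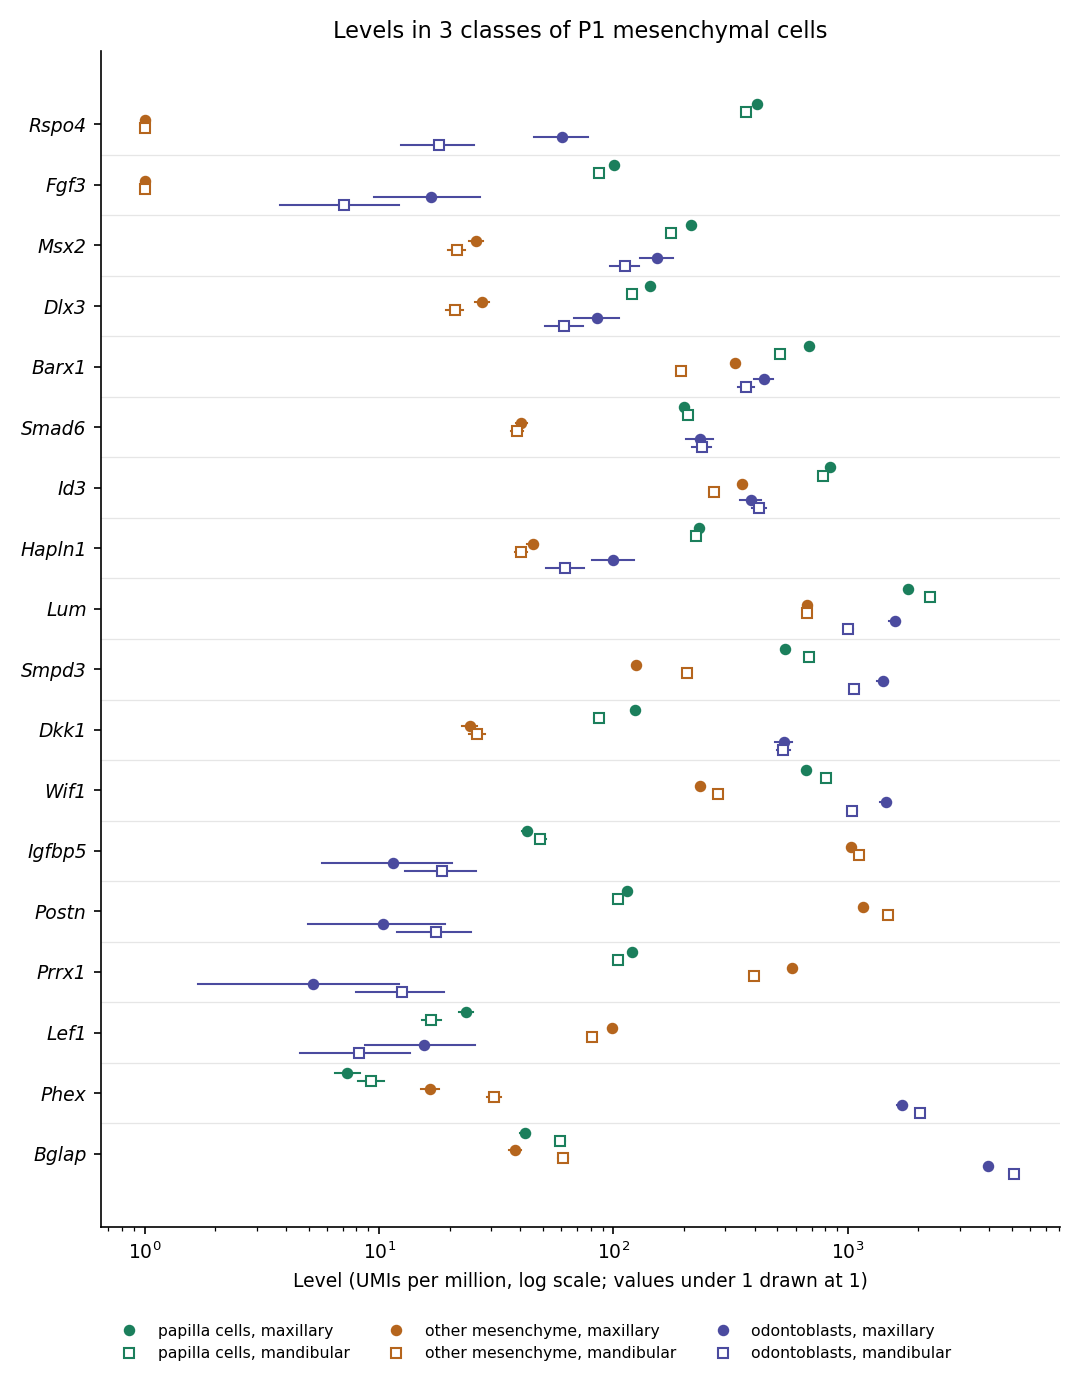
Level in CPM (log scale) of 18 genes in papilla cells, other mesenchyme and odontoblasts of each P1 library, with bars for 95% counting intervals. Msx2 lies somewhat lower in odontoblasts than in papilla cells and lowest in other mesenchyme, Igfbp5 and Postn are highest in other mesenchyme, and Phex and Bglap in odontoblasts.

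The nearest class by descent is the odontoblast, here cells with at least 10 Dspp UMIs under the same filters (38 maxillary and 91 mandibular cells). All 38 maxillary ones carried shared barcodes. Papilla cells had higher levels of 32 of 38 G2/M genes and of 4 of 4 Notch genes, and lower levels of 8 of 10 odontoblast genes. Of 7364 genes, 1204 were higher in papilla cells (16.3%) and 713 lower (9.68%). The median log2 ratio over all genes was 0.25 and 0.27, and after centring on it 1002 were higher and 845 lower. With cells thinned to 2000 UMIs, since odontoblasts were deeper (medians of 23844.5 and 19167 UMIs), 789 were higher, 552 of them among the 1204. The rule used Dspp in this contrast, so the counts are a description.

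The 8 genes furthest below odontoblasts were Gm30191, Phex, Sh2d4a, Dmp1, Ccdc194, 9930111J21Rik2, Bglap and Acpp. Phex, a phosphate-regulating endopeptidase, had 7.33 and 9.27 CPM in papilla cells and 1708 and 2025 CPM in odontoblasts. Bglap, osteocalcin, had 41.8 and 59.3 CPM against 3974 and 5125 CPM. Of the 10 odontoblast genes 8 were lower and 0 higher, against 9.68% and 16.3% of all genes, Smpd3 and Alpl being the 2 that did not pass. Phex and Dmp1 (1.85 and 7.41 CPM) lay under 20 CPM in papilla cells and could reach that level only through odontoblasts. The count follows in part from this level condition and is a description. Smpd3 was already at 541 and 685 CPM in papilla cells and 1406 and 1064 CPM in odontoblasts, log2 ratios of -1.38 (95% interval -1.46 to -1.30) and -0.64 (95% interval -0.70 to -0.57). Alpl, alkaline phosphatase, had 253 and 407 CPM against 382 and 309 CPM, and its ratio changed sign between the jaws.

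Of 5 measured Wnt ligands, 3 were lower in papilla cells (Wnt5b, Wnt6 and Wnt10a) and 1 higher (Wnt4, 21.6 and 22.4 CPM against 4.16 and 5.46 CPM), where 9.68% of all genes were lower and 16.3% higher. Wnt6 was at 57.9 and 58.0 CPM in papilla cells and 371 and 456 CPM in odontoblasts, and Wnt10a at 31.3 and 33.5 CPM against 132 and 113 CPM. Dkk1 had 124 and 86.5 CPM in papilla cells and 533 and 530.3 CPM in odontoblasts. Of 10 Wnt antagonists, 6 were higher in papilla cells (Dkk2, Dkk3, Sfrp1, Sfrp2, Frzb and Sostdc1) and 2 lower (Dkk1 and Notum), against 16.3% and 9.68% of all genes. Rspo2 had 432 and 238 CPM against 45.8 and 16.4 CPM, and Fgf10 81.9 and 72.3 against 9.36 and 6.00. The Fgf10 value in odontoblasts rests on few UMIs, and its log2 ratios were 3.13 (95% interval 2.20 to 4.26) and 3.59 (95% interval 2.75 to 4.60). BMP response genes passed the fold in neither direction (0 of 8), Msx2 standing at 215 and 177 CPM against 153 and 112 CPM.

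All 4 measured Notch genes were higher in papilla cells, namely Notch2, Notch3, Hey1 and Hes1, against 16.3% of all genes. Notch3 is also a pericyte marker, and 2 of 3 pericyte genes were higher, with sums of 252 and 245 CPM against 128 and 136 CPM. Of other lists, 4 of 5 follicle, 2 of 4 red blood cell and 4 of 14 dissociation stress genes were higher and 0 lower. Of 2 epithelial genes 1 was lower (Ambn), the list summing to 123 and 265 CPM against 414 and 506 CPM. Of 8 osteoblast genes 4 were lower and 0 higher, against 9.68% and 16.3% of all genes. The osteoblast list summed to 1068 and 1363 CPM against 7377 and 8936 CPM. The part of these lists in the other differences was not tested. The matrix list went both ways, with 9 of 19 genes higher and 4 lower, and its summed level was lower in papilla cells (11434 and 12246 CPM against 18067 and 21097 CPM). Among the higher were Vcan (2436 and 1784 CPM against 319 and 98.7 CPM) and Tnc (313 and 488 against 29.1 and 45.8). Of the cell cycle lists, 20 of 22 S phase and 32 of 38 G2/M genes were higher and 0 lower. The list of 35 S phase genes summed to 1142 and 1251 CPM in papilla cells and 273 and 244 CPM in odontoblasts. Many S phase genes could thus reach 20 CPM only through papilla cells. These counts are a description and are not set against the share of all genes. Top2a had 169 and 206 CPM against 18.7 and 10.9 CPM. Mki67 or Top2a were seen at 2000 UMIs in 0 of 38 maxillary odontoblasts (exact interval up to 9.25% of cells with a UMI at that depth) and in 1.11% of 90 mandibular ones. At full depth, 10.5% and 9.89% of odontoblasts and 22.1% and 32.7% of papilla cells had a UMI of either. The 8 named genes furthest above odontoblasts were Prc1, Kctd16, Hist1h1b, Pcp4, Adamts19, Adamtsl1, Hbb-bt and Sostdc1. Pcp4, a calmodulin-binding gene, had 171 and 225 CPM against 5.20 and 0.546 CPM.

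The same rule found 103 maxillary and 106 mandibular cells at E15.5, but Crym chose most of them. Crym was detected in 85.4% and 92.5% of these E15.5 cells and Rspo4 in 13.6% and 11.3%, and muscle RNA moved with Crym. Muscle markers summed to 1311 and 431 CPM at E15.5 and to 21.4 and 78.3 CPM at P1. The comparison was therefore repeated without Crym among the markers, an alternative added once the data had been seen, which left 31 and 15 cells at E15.5 and 2459 and 1627 at P1. Of 7458 genes, 588 were higher at P1 (7.88%) and 389 lower (5.22%) with the full rule. Without Crym 520 of 7346 were higher (7.08%), 351 of them among the 588, and 284 were lower (3.87%), 108 of them among the 389. In the maxillary jaw alone 694 were lower and in the mandibular jaw alone 615, and without shared barcodes 283 were higher and 203 lower. Gene span, Malat1 and markers of other cells moved with stage. Genes spanning over 200 kb were 24.8% of the 588 and 19.3% of the 389, against 9.11% of the genes tested, and the nuclear RNA Malat1 was at 16618 and 14811 CPM at P1 and 8300.1 and 8183 CPM at E15.5. Both measured epithelial genes (Ambn and Amelx) were higher at P1, 1 of them without Crym, and without Crym 3 of 14 dissociation stress genes were higher (Fosb, Hspa1a and Hspa1b). Of the pericyte list 2 of 3 were higher under both versions (Kcnj8 and Abcc9). Of 8 osteoblast genes 6 were higher and 0 lower with the full rule. Without Crym 4 of 8 were higher and 1 lower. Of 7 follicle genes 1 was higher and 4 lower with the full rule, with a list median log2 ratio of -2.21 and -2.58. Without Crym 0 of 6 follicle genes passed in either direction, with a median of -0.07 and 0.13. The shares over all genes given above apply to these counts. Red blood cell genes were lower at P1 with the full rule, 4 of 4, with sums of 848 and 3816 CPM against 6051 and 8858 CPM. Their median log2 ratio was -2.78 (maxillary) and -1.27 (mandibular). Without Crym 0 of 4 passed in both jaws, and the median was -4.36 (maxillary) and 0.03 (mandibular). Of 3 tendon genes 2 were lower with the full rule (Scx and Tnmd), and 0 of 1 passed without Crym. Of the muscle list 4 of 4 tested genes were lower with the full rule. In the maxillary cells at P1 the list summed to 21.4 CPM, of which Acta1 gave 11.1 CPM. No muscle gene reached 20 CPM there, so the 4 met the level condition only through E15.5 cells, and their count is a description. Without Crym 1 muscle gene was tested under the same condition, and it stayed lower, with log2 ratios of -4.14 and -2.49. The part of these other cell types in the stage differences was not tested.

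Higher at P1 under both versions were Msx2, Bmp2, Smad6, Dlx3, Dlx4, Alpl, Lum, Hapln1 and Tnc. Of the odontogenic factors, 4 of 18 were higher and 3 lower with the full rule, against 7.88% and 5.22% of all genes. Without Crym 3 of 17 were higher and 8 lower, against 7.08% and 3.87% of all genes. The 8 were Pax9, Lhx8, Dlx2, Prrx1, Prrx2, Twist1, Runx2 and Tfap2b. Of the 6 measured genes of the list known from the papilla, 0 were higher under either version. With the full rule 1 of them was lower, and without Crym 3 were, against the same shares. Msx2 stood at 215 and 177 CPM at P1, at 13.1 and 9.66 CPM at E15.5 with the full rule and at 19.1 and 66.4 CPM at E15.5 without Crym. Bmp2 had 239.5 and 136 CPM at P1 against 5.97 and 10.2 CPM with the full rule and 6.36 and 29.5 CPM without Crym. Hapln1 had 232 and 225 CPM against 25.1 and 7.11 CPM with the full rule and 53.0 and 22.1 CPM without Crym. Of the 8 BMP response genes, 7 were higher with the full rule (7.88% of all genes) and 3 without Crym (7.08% of all genes), the 3 being Msx2, Smad6 and Id4, and 0 were lower in either. The 10 named genes furthest above E15.5 were D030025E07Rik, Scin, Nell2, Sp6, Gm40193, Dok6, Kctd16, Gm973, Sct and Omd, and all 10 were higher under both versions. Omd, osteomodulin, had 604 and 677 CPM at P1 against 23.9 and 14.7 CPM with the full rule and 33.9 and 70.1 CPM without Crym.

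Lower at P1 under both versions was Lef1, at 23.4 and 16.7 CPM at P1 against 163 and 52.9 CPM with the full rule and 352 and 306 CPM without Crym at E15.5. Mgp, an inhibitor of calcification, and Nfib were lower in both as well. Of the S phase list 12 of 30 genes were lower with the full rule and 20 of 31 without Crym, against 5.22% and 3.87% of all genes, and 0 were higher in either. Without Crym, 24 S phase genes reached 20 CPM in P1 papilla cells of either jaw. The rest of those tested reached it only through E15.5 cells, so these counts follow in part from the level condition and are a description. Of the G2/M list 0 of 44 passed the fold with the full rule, and 4 of 44 were lower and 0 higher without Crym (Cks1b, Hmmr, Cenpe and Gas2l3). The 10 named genes furthest below E15.5 were Tnnt2, Rbp4, Myog, Tnni1, Actc1, Tnnc1, Ttn, Meox2, Mgp and Nfib. Of these, 6 are genes of muscle fibres or muscle precursors. Without Crym, Ttn was at 0 and 0 CPM and Myog at 0 and 3.69 CPM at E15.5. The 1 gene of the muscle list tested without Crym was still lower at P1, with log2 ratios of -4.14 and -2.49, a description under the level condition given above. Barx1 and Wif1 passed the fold under neither version, nor did Rspo2 and Dkk1 without Crym. Dkk1 was at 124 and 86.5 CPM at P1, at 48.9 and 17.8 CPM at E15.5 with the full rule and at 144 and 122 CPM without Crym. FGF response genes were lower in 5 of 8 with the full rule and in 3 of 7 without Crym, against 5.22% and 3.87% of all genes, Spry4, Dusp6 and Etv4 in both. Without Crym, only 3 genes of this list reached 20 CPM in P1 papilla cells of either jaw. Most of those tested could thus reach that level only through E15.5 cells, and these counts are a description. Stage cannot be told apart from library, since each stage had its own.

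**Figure D4:**
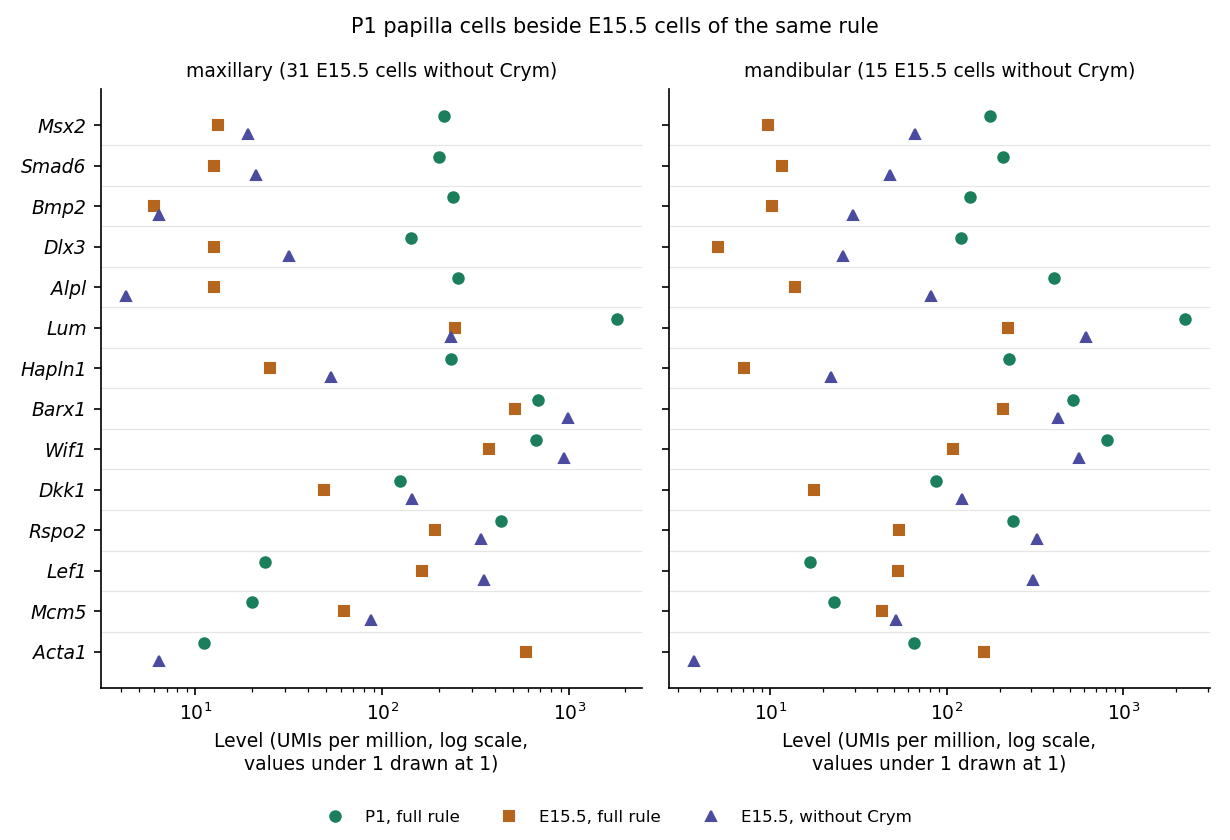
Level in CPM (log scale) of 14 genes in P1 papilla cells and in E15.5 cells of the same rule, with and without Crym among the markers, for each jaw. Msx2, Bmp2 and Hapln1 lie higher at P1 and Lef1 lower under both versions, while Acta1 at E15.5 differs with and without Crym.

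Between the jaws at P1, few genes passed the fold. Of 7252 genes, 64 were higher (0.883%) and 30 lower (0.414%) in the maxillary than in the mandibular papilla cells. With 1 library per jaw, jaw and library cannot be told apart. Of the maxillary papilla cells 97.6% carry barcodes also present in the mandibular library, and the library these cells came from was not tested. Msx2, Barx1 and Dlx5 were within the fold, with log2 ratios of 0.28 (95% interval 0.23 to 0.33), 0.41 (95% interval 0.38 to 0.44) and 0.19 (95% interval 0.14 to 0.25). Of the lists, 0 of 8 BMP response, 0 of 10 Wnt antagonist, 0 of 6 Notch and 0 of 4 Wnt target genes passed the fold, counts that the share over all genes would also give. Of 15 dissociation stress genes, 2 were higher in the maxillary cells (Junb and Ier2), the list median was 0.76 and the sums were 3826 CPM (maxillary) and 2394 CPM (mandibular). Their part in the other differences was not tested. Sema3e, a guidance cue, had 106 CPM in the maxillary and 24.2 CPM in the mandibular cells, log2 ratio 2.13 (95% interval 2.01 to 2.26). Fst, an activin and BMP antagonist, had 131 CPM in the maxillary and 40.2 CPM in the mandibular cells. Tac1, which encodes substance P and marks the apical papilla, had 119 CPM in the maxillary and 48.6 CPM in the mandibular cells, and Lhx6 33.6 CPM in the maxillary and 12.7 CPM in the mandibular cells.

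The genes furthest above in the maxillary cells included Mgat4c, Cadm2, Cdh13, Sema3e, Tenm2, Kctd8 and Scn9a, and gene length moved with the difference. Of the 64 higher genes, 56.2% span over 200 kb, against 13.3% of the 30 lower genes and 8.95% of all tested genes. Genes of that span gave 10.9% of the UMIs of maxillary and 9.67% of those of mandibular papilla cells. Mgat4c was found in 267 maxillary and 27 mandibular papilla cells, at 64.8 and 4.63 CPM. In the comparisons with other mesenchyme, odontoblasts and coronal cells, 23.1%, 19.9% and 31.4% of the higher genes and 26.3%, 11.1% and 22.3% of the lower genes had such a span. The part of gene length in these differences was not tested.

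The 8 named genes lower in the maxillary cells were Acta1, Hba-a1, Hba-a2, Hbb-bs, Spp1, Hbb-bt, Amelx and H19, of which 4 are globins and Amelx is an enamel gene. Spp1, osteopontin, rested on single cells, with 1 cell holding 70.5% (maxillary) and 76.3% (mandibular) of its UMIs in papilla cells. Acta1, skeletal muscle actin, had 11.1 CPM in the maxillary and 65.3 CPM in the mandibular cells and was detected in 137 and 666 of them. At E15.5, where Crym picked cells with muscle RNA, it stood the other way, at 588 and 163 CPM, and at 6.36 and 3.69 CPM without Crym. Without the shared barcodes the 61 maxillary cells gave 720 genes higher and 625 lower, and the 4 globins and H19 changed sign.

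Papilla cells differed among themselves along the axis from the root side (apical) to the cusp side (coronal), as far as marker genes show it. Cells with a UMI of Tac1 or Aox3 and none of Enpp6 or Fabp7 (apical markers, 1079 and 569 cells) were set against the reverse (coronal markers, 348 and 423 cells). A further 184 and 138 cells had both and 908 and 533 had neither. When cells were thinned to 2000 UMIs, 499 and 238 had apical markers alone, 129 and 160 coronal ones, and 7 and 5 both. Cells were chosen by 4 measured genes, so the differences are a description. Of 7153 genes, 105 were higher (1.47%) and 139 lower (1.94%) in the cells with apical markers. With doublets left out 186 were higher and 164 lower, in the maxillary jaw alone 164 and 165, and in the mandibular jaw alone 348 and 261.

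Higher in cells with apical markers were 2 of 5 Wnt ligands, 2 of 4 Wnt targets and Fgf10, against 1.47% of all genes. Wnt10a had 47.6 and 63.3 CPM against 5.25 and 6.70 CPM in cells with coronal markers, log2 ratios of 3.18 (95% interval 2.64 to 3.78) and 3.24 (95% interval 2.80 to 3.71). Wnt6 had 79.1 and 91.5 CPM against 25.3 and 29.8 CPM, and Fgf10 122 and 127 against 27.9 and 20.1. Lef1 and Nkd2, Wnt targets, the factors Lhx6 and Lhx8, the receptor Lgr6 and the guidance cues Sema3a and Slit2 were higher on the same side. Smpd3 had 731 and 1061 CPM against 278 and 371 CPM. The 6 named genes were Kcnip4, Hbb-bt, Pappa, Gabrg3, Dach2 and Crabp1. Kcnip4, a potassium channel partner, had 1141 and 1589 CPM against 199 and 133 CPM. Crabp1, which binds retinoic acid in the cell, had 310.3 and 504 CPM against 70.3 and 86.6 CPM.

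Of 6 Notch genes, 3 were lower in the cells with apical markers and 0 higher, against 1.94% lower over all genes. Hey1 had 44.1 and 37.6 CPM against 161 and 194 CPM, log2 ratios of -1.87 (95% interval -2.01 to -1.72) and -2.37 (95% interval -2.54 to -2.20), and Heyl and Notch3 were the other 2. Notch3 is also a pericyte marker, and the pericyte list, of which 1 of 3 was lower, summed to 209.6 and 173 CPM against 312 and 353 CPM. Its part was not tested. Alpl had 154 and 179 CPM against 607 and 801 CPM, and Tnc 203 and 251 against 629.8 and 838. Gdnf, a neurotrophic factor, had 5.10 and 8.23 CPM against 42.9 and 50.3 CPM. The 6 named genes were Grm8, Irx5, Vdr, Myo16, Ctnnd2 and Kit. Vdr, the vitamin D receptor, had 10.8 and 9.96 CPM against 79.3 and 99.7 CPM, and Irx5, a homeobox gene, 6.74 and 9.74 against 56.3 and 88.0. Msx2, Barx1 and the 8 BMP response genes passed the fold in neither direction. Rspo4 stood at 314 and 232 CPM in cells with apical and 519 and 496 CPM in cells with coronal markers.

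Alpl and Smpd3, both genes of mineralizing cells, thus lay on opposite sides. Of 43 G2/M genes, 2 were higher on the apical side and 0 lower, against 1.47% and 1.94% of all genes, and the list, led by Hmgb2, summed to 4039.6 and 5030.0 CPM against 2640.2 and 1983 CPM. Red blood cell genes moved with the split, with 4 of 4 higher on the apical side and sums of 1709 and 4229.8 CPM against 166 and 1248 CPM. Their part in the other differences was not tested. Of the endothelial and epithelial lists, Kdr and Ambn were higher in the cells with coronal markers.

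**Figure D5:**
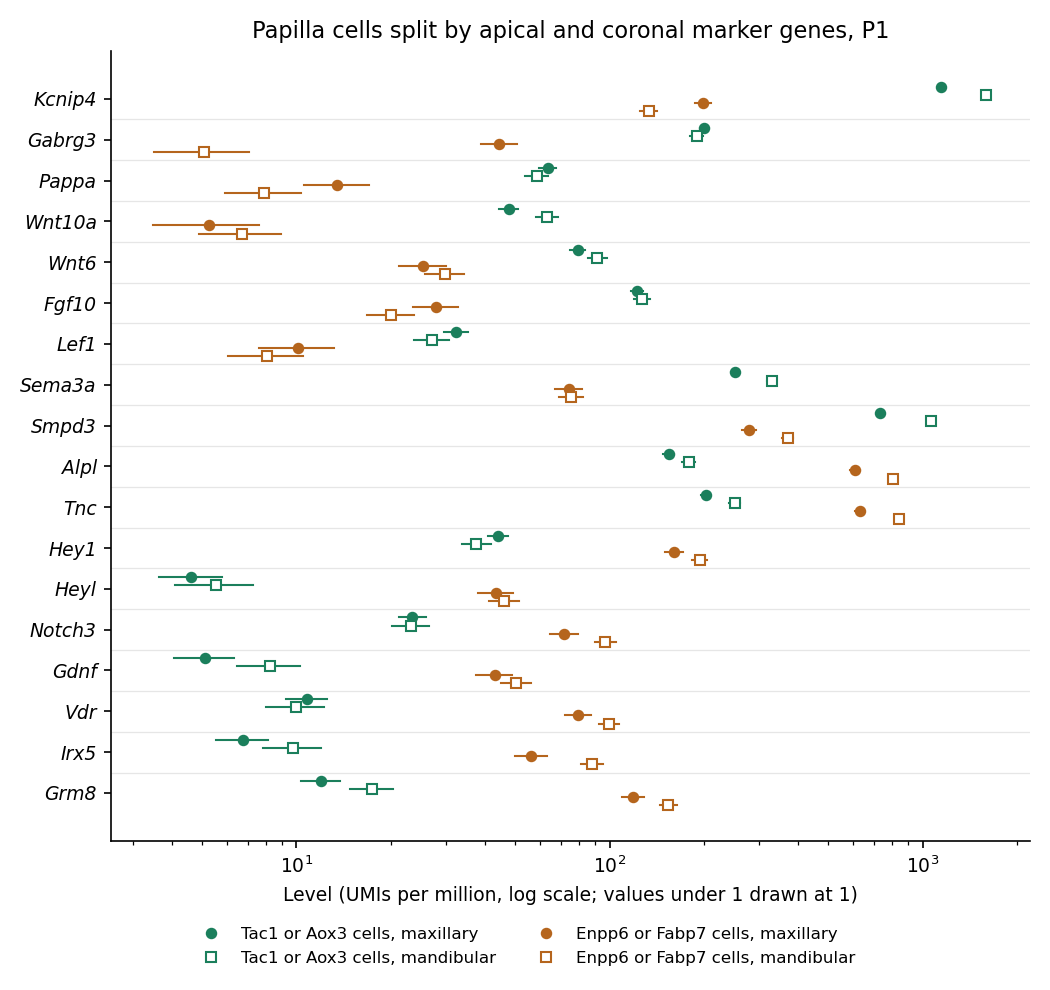
Level in CPM (log scale) of 18 genes in papilla cells with apical or with coronal markers alone, in each P1 library, with bars for 95% counting intervals. Wnt10a, Wnt6, Fgf10 and Smpd3 lie higher on the apical side, and Alpl, Hey1, Gdnf and Vdr on the coronal side, in both jaws.

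Variation from cell to cell was measured as the variance over the mean of each gene's counts after thinning to 2000 UMIs (2516 and 1659 cells, 5304 genes, median 1.05 and 1.05). The 10 most variable genes were Hbb-bs, Hba-a1, Hbb-bt, Hba-a2, Malat1, Gm42418, Ptn, Kcnip4, Vim and Csmd1, the same 10 at 1000 UMIs. The globins had ratios up to 261 and 239 (Hbb-bs), a few cells holding most of the UMIs as stated above. Malat1, a nuclear RNA, had 11.0 and 11.1. Ptn, pleiotrophin, had 10.7 and 9.21 and was found in 94.2% and 97.6% of cells. Kcnip4 had 7.25 and 6.92 and was found in 32.5% and 36.6%. Csmd1 had 5.91 and 7.02 and was found in 37.0% and 53.0%. Kcnip4 also headed the genes on the apical side above.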

How the data were processed

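Single-cell RNA was measured in 4 libraries of wild-type mouse molars (P1 and E15.5, maxillary and mandibular), 1 library per group. The authors deposited filtered matrices of UMI counts made with Cell Ranger 7.0.1 (per the file headers) on mm10 (per the labels), with 32285 genes. Counts were used as deposited. Total UMIs were 128812956 and 139873101 at P1 and 109723360 and 86659227 at E15.5 (maxillary, mandibular).

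Classes were formed from barcodes with at least 1000 UMIs and under 10% mitochondrial UMIs, and P1 mandibular barcodes also present in the P1 maxillary library were dropped. UMIs were summed over the cells of a class and divided by its total. Intervals were exact at 95% (Poisson for levels, Clopper-Pearson for shares and, after conversion, for log2 ratios), and cover counting error only. A count of 0 was set to 3 UMIs in a ratio, which is then a bound, and no ratio was given where both counts were at most 3. No p-value was computed, since cells of 1 library are not replicates. The 11 genes of the rule, and the 4 position markers where they chose the cells, were not counted in their own comparisons. For 40 symbols listed more than once, the first row was used.

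The genes named had to reach 50 CPM in whichever class was higher and to differ in the same direction in both jaws, and were ranked by the smaller ratio of the jaws (for the jaws themselves, by the interval bound nearest 0), with 12 higher and 10 lower for other mesenchyme, 8 and 8 for odontoblasts, 10 and 10 for stage, 8 and 8 for jaw and 6 and 6 for position, besides members of 43 gene lists and the 10 most variable genes. Mitochondrial and ribosomal protein genes were not named, and some genes that met the rule are not reported here. The members and lists were chosen with earlier results of these data known. The automatic threshold of Scrublet marked 0, 0, 2 and 0 barcodes, which means that it did not work, so doublets were kept, and leaving out the barcodes with the highest scores was an alternative. Other alternatives changed the scaling, the depth, the filters, the markers and the shared barcodes. Those that left Crym out, stayed within shared barcodes or used 1 jaw alone were chosen after seeing the data. Code was tested on simulated data. Python 3.11.15, numpy 2.4.6, scipy 1.17.1, pandas 2.3.3 and scanpy 1.11.5 were used.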

Additional observations from a re-analysis of the deposited data

Results flagged for a closer look

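Among listed genes and the named jaw genes at 20 CPM or more, 3 had log2 ratios of at least 1 in size that pointed in opposite directions in 2 groups under the same contrast, and none of these differences was tested. Ibsp, bone sialoprotein, had a log2 ratio of papilla cells over odontoblasts of 2.79 (maxillary) and -1 (mandibular), and of cells with apical over cells with coronal markers of 2.91 and -1.28. Its 10 richest papilla cells held 63.9% and 72.4% of its UMIs. Nnat, a marker of the middle papilla, had a log2 ratio of P1 over E15.5 of 1.21 in the maxillary and -1.76 in the mandibular cells, and without Crym among the markers of 1.26 and 2.54, the last over 3 UMIs at E15.5. Acta1, skeletal muscle actin, had a log2 ratio of maxillary over mandibular cells of -2.56 at P1 and 1.86 at E15.5, where the cells picked by Crym carried muscle RNA. Between the jaws, Mgat4c, Spp1 and Scn9a also changed sign from P1 to E15.5, all at under 20 CPM at E15.5. Rspo4 stood at 391.7 CPM in the mandibular counts of the barcodes that belong to maxillary papilla cells, counts that entered no comparison.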

How the results depend on the processing

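No paired analysis was possible because each stage and jaw had 1 library. Without shared barcodes the maxillary members numbered 61, and with those barcodes kept in both libraries the mandibular ones numbered 2881. Counts below give genes higher, then lower. With at least 10 UMIs over both classes as the only level filter, they were 961 and 1887 against other mesenchyme, 2504 and 2085 against odontoblasts, 1265 and 1595 for stage, 809 and 760 for jaw and 404 and 400 for position. With at least 50 CPM, 242 were lower against other mesenchyme, 592 higher against odontoblasts, 383 and 196 for stage, 41 and 13 for jaw and 52 and 81 for position. Without shared barcodes they were 178 and 220 against other mesenchyme, 283 and 203 for stage and 720 and 625 for jaw. This could not be run for odontoblasts, with no maxillary odontoblasts left, or for position, with under 50 cells a side. Cells thinned to 2000 UMIs gave 789 higher against odontoblasts, and doublets left out 186 higher for position. In the mandibular jaw alone, 542 and 714 differed from other mesenchyme. For stage, 694 (maxillary alone) and 615 (mandibular alone) were lower. For position, 164 (maxillary alone) and 348 (mandibular alone) were higher and 261 (mandibular alone) lower. Single genes changed sign in 7 of 584 values, with 379 inside their counting interval and 198 moved. With Crym left out Actc1 had a log2 ratio of 0.14 for stage. Without shared barcodes the jaw ratios were 0.45 for Hba-a1, 0.72 for Hba-a2, 0.41 for Hbb-bs, 0.36 for Hbb-bt and 2.10 for H19, and with at least 3 marker UMIs that of Spp1 was 0.070. The cause was not tested. Few cells stand behind the 38 maxillary odontoblasts and the 103 and 106 E15.5 cells, and low UMI counts limit their less abundant genes.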
